A study of Mus musculus with 9 samples.

Results

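Astrocytes clear transmitter and potassium from the space around synapses, move water at their vascular endfeet and share small molecules through gap junctions. Here the mRNA of 9 genes that carry out this work was followed in brains of mice with the N171-82Q Huntington's disease (HD) transgene and of wild-type (WT) mice. The 9 were chosen by name from the 21853 protein-coding genes of the files, and all 9 were among the 15411 genes that passed the filter on low values. They are the glutamate transporters Slc1a2 and Slc1a3, the GABA transporter Slc6a11, glutamine synthetase Glul, the potassium channel Kcnj10, the water channel Aqp4, the membrane protein Mlc1 and the connexins Gja1 and Gjb6.

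There were 3 groups of 3 libraries, all from poly(A) RNA of tissue labelled as brain. The HD-WNT5B libraries came from N171-82Q mice given pAAV-GFAP(pro)-WNT5B-P2A-mCherry, the HD-Control libraries from N171-82Q mice given pAAV-GFAP(pro)-Control-mCherry, and the WT-Control libraries from WT mice given that same control vector. All 9 libraries thus came from brains given an mCherry virus, and no group without virus was analysed here. N171-82Q mice express an N-terminal fragment of mutant huntingtin from a prion protein promoter, and GFAP promoter vectors are used to drive their cargo in astrocytes. The series text places the WNT5B injection in the striatum, while the labels name no brain region, age, sex or animal, so the p-values measure only the spread between these libraries, which may be technical. WNT5B is a secreted ligand of non-canonical Wnt signalling, and the study title names a pathway that runs from it through the transcription factor NFATc2 to the matrix protease MMP14 in astrocytes.

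The values are normalised read counts, deposited on 1 scale for all 9 libraries and not divided by gene length. The depth behind them came to 37.3 to 52.1 M reads in HD-WNT5B, 69.8 to 90.6 M in HD-Control and 67.8 to 77.8 M in WT-Control libraries. Each of the 9 genes was above 200 in every library. The HD-WNT5B libraries stood apart from the other 6 as a group. Their summed values were 79.9 to 83.8 M, against 55.6 to 55.8 M in HD-Control and 54.6 to 54.7 M in WT-Control. Their median SD of log2 values over the 13081 genes averaging 100 or more was 0.233, against 0.033 in HD-Control and 0.039 in WT-Control. Their log2 change against HD-Control also followed transcript length, with medians of 1.24, 0.24, -0.20, -0.54 and -1.0 over the 13081 genes averaging 100 or more, from the shortest to the longest quintile of transcript length, taking the longest annotated transcript of each gene (0.07, 0.05, 0.01, 0.01 and -0.01 in HD-Control against WT-Control). The larger sum was seen in each of the 3 libraries, while the SD and the length trend were measured for the group. A difference in the libraries and an effect of the WNT5B virus cannot be told apart, since both fall on the same group. The changes of the 9 genes in HD-WNT5B, and the counts of the main gene lists, are therefore also given after the trend with length and GC content had been removed from each library.

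Mouse Wnt5b itself read 184, 22.5 and 212 in the HD-WNT5B libraries, against 63.8, 44.2 and 49.3 in HD-Control and 74.6, 63.8 and 57.7 in WT-Control. The second HD-WNT5B library thus lay below all 6 control libraries, and the difference from HD-Control was not called (log2 0.88, limma adjusted p = 0.298). The labels do not say whether the vector carries the mouse sequence, so this gene checks the label only in part, and HD-WNT5B stands throughout for the libraries labelled so. Mmp14 averaged 1602 ± 212 in HD-WNT5B, 770 ± 49.8 in HD-Control and 698 ± 19.8 in WT-Control (SD, n = 3 each). It was higher in HD-WNT5B than in HD-Control (log2 1.05, limma adjusted p = 2.3e-05), and Nfatc2 was not called in that comparison (log2 -0.02, adjusted p = 0.929).

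Across the 9 genes, 8 were lower and Gjb6 was higher in HD-Control than in WT-Control. In limma fits across all genes tested, with calls at a Benjamini-Hochberg adjusted p below 0.05, 45.1% of genes were called in this comparison, 24.5% higher and 20.7% lower. The median log2 change was -0.79 for the 9 genes and 0.02 for all genes. In HD-WNT5B against HD-Control, 7 were lower, Gjb6 was higher and Gja1 was not called, beside 77.5% of all genes called, 35.8% higher and 41.7% lower. The medians were -1.21 for the 9 genes and -0.23 for all genes. In HD-WNT5B against WT-Control, 8 were lower and Gjb6 was higher, beside 77.9% of all genes called, 35.9% higher and 42.1% lower (medians -1.35 and -0.25). With the length and GC trend removed, 8 of the 9 were again called in HD-WNT5B against HD-Control, beside 11382 of all 15411 genes tested. Of the 9, however, 6 were then lower, Gjb6 and Gja1 higher, and Kcnj10 not called. The libraries of the groups did not overlap for 9, 8 and 9 of the 9 genes in these comparisons, beside 84.0%, 78.7% and 79.4% of all genes. The HD-Control libraries enter both of the first 2 comparisons, so the values of the members in them are given side by side and not correlated. In bulk tissue, fewer cells of a type and less RNA per cell cannot be told apart.

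**Figure D1:**
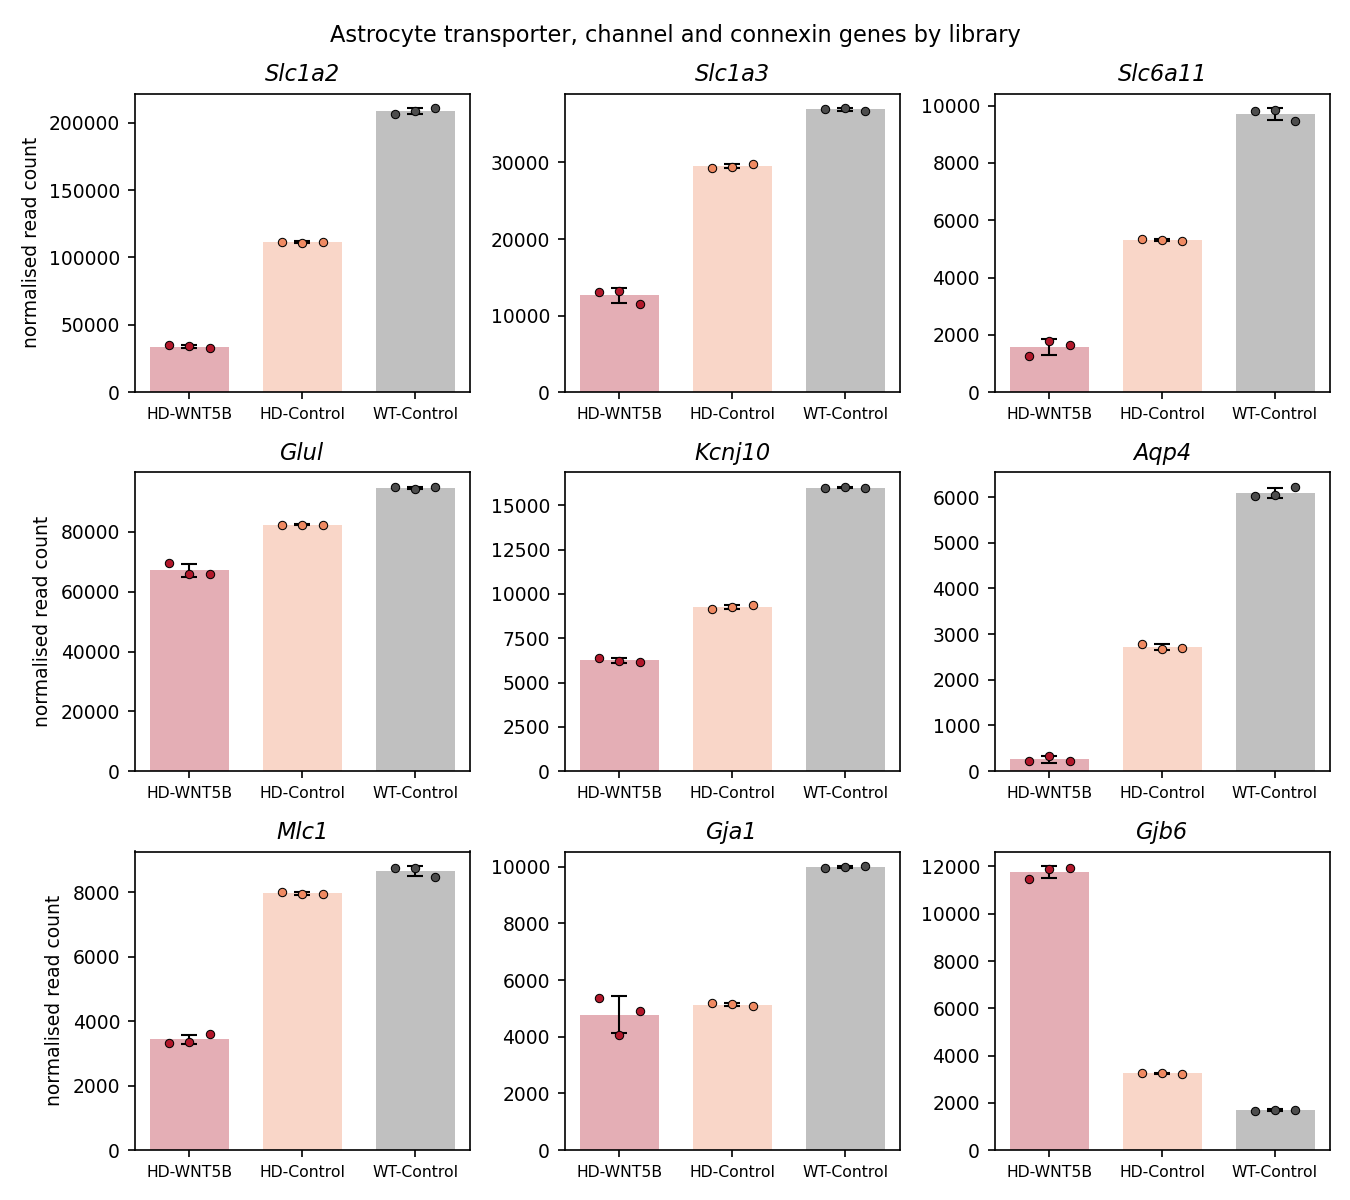
Normalised read counts (vertical axes, each from 0) of the 9 genes in each library; bars are group means, error bars the SD of 3 libraries and points single libraries, with HD-WNT5B, HD-Control and WT-Control from left to right. Slc1a2 averaged 33822 in HD-WNT5B, 111245 in HD-Control and 208774 in WT-Control, while Gjb6 ran the other way with 11763, 3251 and 1684.

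Slc1a2 encodes GLT-1, the transporter that removes most synaptic glutamate in the forebrain. Its normalised counts were 34906, 33938 and 32621 in HD-WNT5B, 111441, 110564 and 111731 in HD-Control, and 206719, 208499 and 211104 in WT-Control. The 3 groups were far apart, with no overlap, and the libraries of each group lay close together. In HD-Control the gene was at 53.3% of its WT-Control mean (log2 -0.91, SE 0.03, limma adjusted p = 4.5e-07). In HD-WNT5B it was at 30.4% of the HD-Control mean (log2 -1.72, SE 0.03, adjusted p = 3.2e-10) and at 16.2% of the WT-Control mean. Slc1a2 has the longest transcript of the 9, 11.6 kb, and the 372 of those genes with a transcript of at least 10 kb had a median log2 change of -1.19 in HD-WNT5B against HD-Control. With the length and GC trend removed its change in that comparison was -0.68 (95% interval -0.78 to -0.58). In HD-Control against WT-Control the same correction left -0.85. The gene lies on the plus strand at chr2:102658659-102790784 in mm10, and 1.44% of its exon bases are shared with Gm13872.

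Slc1a3, or GLAST, is the second astrocytic glutamate transporter and dominates in cerebellum and retina. It read 13147, 13226 and 11541 in HD-WNT5B, 29305, 29384 and 29823 in HD-Control, and 36970.3, 37124 and 36674 in WT-Control. The order of the groups was that of Slc1a2, without overlap, but the step between HD-Control and WT-Control was smaller. It fell to 79.9% of the WT-Control mean in HD-Control (log2 -0.32, SE 0.05, limma adjusted p = 9.5e-04). In HD-WNT5B it fell to 42.8% of the HD-Control mean (log2 -1.23, SE 0.05, adjusted p = 4.9e-08), and the change was -0.61 with the length and GC trend removed. The gene lies on the minus strand at chr15:8634124-8710764.

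The ratio of Slc1a2 to Slc1a3 was 2.66, 2.57 and 2.83 in HD-WNT5B, 3.80, 3.76 and 3.75 in HD-Control, and 5.59, 5.62 and 5.76 in WT-Control. No library of one group reached the range of another. Such a ratio does not depend on the scaling of libraries, but it carries the length trend where the transcripts differ in length. The log2 change of this ratio in HD-WNT5B against HD-Control was -0.07 with the length and GC trend removed, in place of -0.49. In HD-Control against WT-Control it was -0.53, in place of -0.59. These pairs were chosen after the values were seen, and with 3 libraries against 3 an exact two-sided permutation test cannot go below 0.1.

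Slc6a11 encodes GAT-3, the GABA transporter of astrocyte processes. It read 1254, 1802 and 1629.7 in HD-WNT5B, 5334, 5314 and 5270.5 in HD-Control, and 9816, 9858 and 9472 in WT-Control. The HD-WNT5B libraries scattered more than the others and stayed far below them, and the groups did not overlap. Slc6a11 was at 54.6% of WT-Control in HD-Control (log2 -0.87, SE 0.11, limma adjusted p = 3.6e-04). In HD-WNT5B it was at 29.4% of HD-Control (log2 -1.78, SE 0.11, adjusted p = 8.8e-07), and its change was -1.69 with the length and GC trend removed. The gene lies on the plus strand at chr6:114131241-114249952. On the deposited scale its fold changes lay beside those of Slc1a2 in both comparisons. They were apart with the trend removed in HD-WNT5B against HD-Control, at -1.69 for Slc6a11 and -0.68 for Slc1a2.

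Glul encodes glutamine synthetase, which turns the glutamate taken up by astrocytes into glutamine for return to neurons. Its counts were 69552, 65858 and 65977 in HD-WNT5B, 82420.1, 82137 and 82416 in HD-Control, and 95015, 94441 and 94900.2 in WT-Control. The groups did not overlap, yet the steps between them were the mildest among the transporters and their partner enzyme. Glul fell to 86.9% of WT-Control in HD-Control (log2 -0.20, SE 0.03, limma adjusted p = 5.2e-04) and, in HD-WNT5B, to 81.5% of HD-Control (log2 -0.29, SE 0.03, adjusted p = 1.4e-05). Relative to the median of all genes the second change was -0.07. With the length and GC trend removed it was -0.38. Slc1a2 stood at 0.504 of Glul in HD-WNT5B, 1.35 times Glul in HD-Control and 2.20 times Glul in WT-Control (means of the ratios within libraries). The log2 change of this ratio in HD-WNT5B against HD-Control was -1.42 as deposited and -0.295 with the trend removed. Glul lies on the plus strand at chr1:153899944-153909723 and shares 3.49% of its exon bases with Mir8114 and Teddm2.

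Kcnj10 encodes Kir4.1, the inward rectifier that sets the resting potential of astrocytes and buffers extracellular potassium. It read 6402, 6235 and 6142 in HD-WNT5B, 9126, 9278 and 9372 in HD-Control, and 15980, 16041 and 15946 in WT-Control. The groups were separate and the libraries of each group close to one another. It was at 57.9% of WT-Control in HD-Control (log2 -0.79, SE 0.03, limma adjusted p = 6.1e-07). In HD-WNT5B it was at 67.6% of HD-Control (log2 -0.56, SE 0.03, adjusted p = 1.9e-07). Its transcript of 5407 bases falls in the second longest quintile, whose median change in that comparison was -0.54. With the length and GC trend removed the change was -0.01 (95% interval -0.07 to 0.05, adjusted p = 0.653), and the call was lost. The fall in HD-Control against WT-Control remained -0.75 after the same correction. Kcnj10 lies on the plus strand at chr1:172341210-172374085.

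Aqp4 encodes the water channel that is packed into astrocyte endfeet around vessels, and it showed the largest fold changes of the 9. Its counts were 218, 334 and 214 in HD-WNT5B, 2786, 2671 and 2700.2 in HD-Control, and 6014, 6037 and 6227 in WT-Control. The HD-WNT5B libraries lay far below the other 6, and the groups did not overlap. Aqp4 fell to 44.6% of WT-Control in HD-Control (log2 -1.16, SE 0.15, limma adjusted p = 3.8e-04). It fell to 9.40% of HD-Control in HD-WNT5B (log2 -3.43, SE 0.15, adjusted p = 8.7e-08), a change below those of all but 3.50% of genes tested. With the length and GC trend removed it was -2.49 (95% interval -2.81 to -2.18). Per kilobase of transcript its level was above that of 22% of tested genes in HD-WNT5B, 60% in HD-Control and 80.8% in WT-Control. Aqp4 lies on the minus strand at chr18:15389496-15410982.

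The potassium and water channels, which share endfeet, separated within libraries. The ratio of Kcnj10 to Aqp4 was 29.3, 18.7 and 28.6 in HD-WNT5B, 3.28, 3.47 and 3.47 in HD-Control, and 2.66, 2.66 and 2.56 in WT-Control. All 3 groups were apart on this ratio, with the HD-WNT5B libraries furthest out. With the trend removed its log2 change in HD-WNT5B against HD-Control was 2.48, in place of 2.86.

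**Figure D2:**
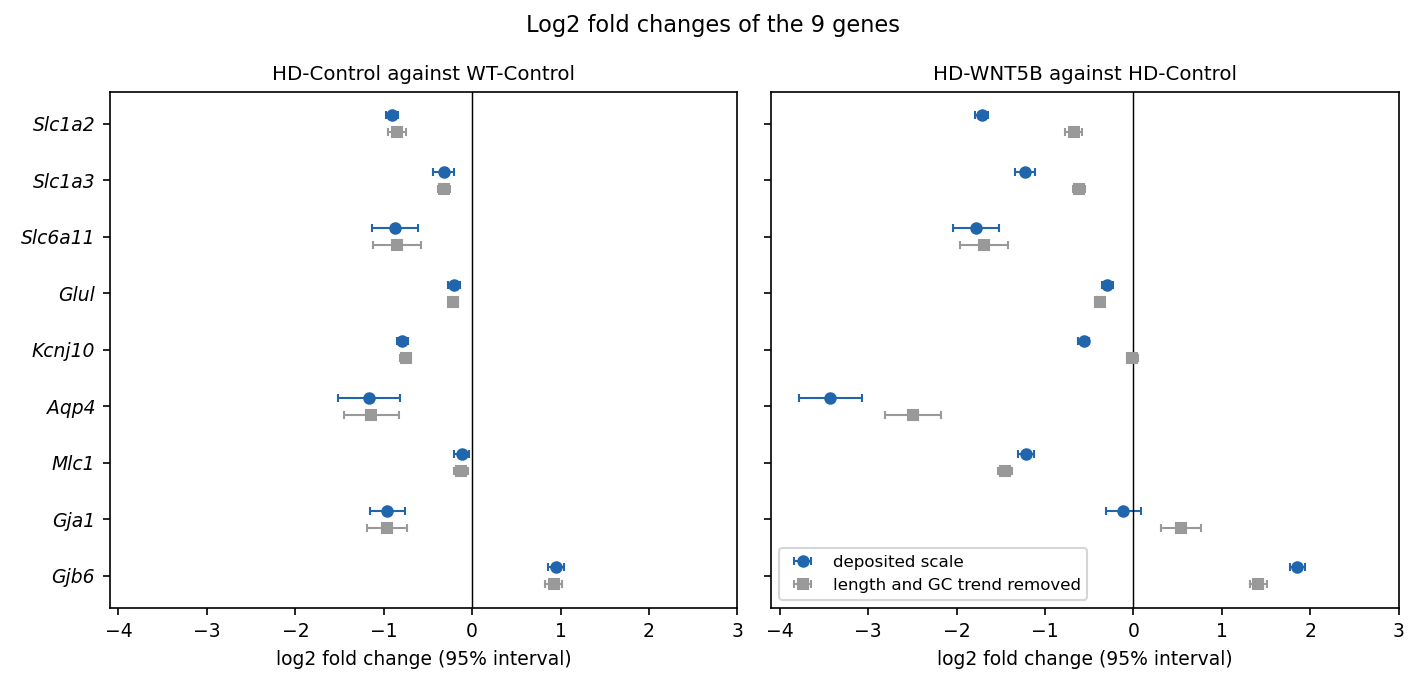
Log2 fold changes of the 9 genes with 95% intervals from the limma fit, for HD-Control against WT-Control and HD-WNT5B against HD-Control; circles are on the deposited scale and squares after the length and GC trend was removed per library. The correction moved HD-Control against WT-Control little, and in HD-WNT5B against HD-Control it took Kcnj10 to -0.01 and Gja1 to 0.54.

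Mlc1 encodes a membrane protein of perivascular astrocyte processes whose human gene is mutated in a childhood leukoencephalopathy with cysts. It read 3325, 3369.9 and 3607 in HD-WNT5B, 7995, 7930.5 and 7958 in HD-Control, and 8740.3, 8763 and 8463 in WT-Control. HD-Control and WT-Control libraries did not overlap but lay close together, while HD-WNT5B libraries were far below both. The change in HD-Control against WT-Control was small (log2 -0.12, SE 0.04, limma adjusted p = 0.0351). It lost its call without any 1 of the 6 libraries of these groups (adjusted p 0.0568 to 0.119) and with trimmed-mean scaling (0.0516). In HD-WNT5B against HD-Control Mlc1 fell to 43.1% (log2 -1.21, SE 0.04, adjusted p = 1.1e-08), and the change was -1.45 with the length and GC trend removed. The gene lies on the minus strand at chr15:88955884-88979007.

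The connexins of astrocytes, Gja1 (connexin 43) and Gjb6 (connexin 30), form the gap junctions of the astrocyte network, and in HD-Control against WT-Control they moved in opposite directions. Gja1 read 5366, 4057 and 4915 in HD-WNT5B, 5176, 5144 and 5084 in HD-Control, and 9944, 9979 and 10030 in WT-Control. HD-WNT5B and HD-Control overlapped, and both lay well below WT-Control. Gja1 fell to 51.4% of WT-Control in HD-Control (log2 -0.96, SE 0.09, limma adjusted p = 5.0e-05). Against HD-Control it was not called in HD-WNT5B (log2 -0.11, 95% interval -0.31 to 0.09, adjusted p = 0.265). That value rested on single libraries: it was 0.00025 without the second and -0.20 without the first HD-WNT5B library (adjusted p = 0.995 and 0.0336). It was 0.54 with the length and GC trend removed (adjusted p = 0.00102), the opposite sign, and -0.67 with all libraries brought to an equal total (adjusted p = 2.0e-04). Gja1 lies on the plus strand at chr10:56377330-56402513.

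Gjb6 was the 1 gene of the 9 that rose. It read 11455, 11898 and 11936 in HD-WNT5B, 3266, 3256 and 3231 in HD-Control, and 1637, 1716 and 1697 in WT-Control. No library of a group came near another group. It was 1.93 times WT-Control in HD-Control (log2 0.95, SE 0.04, limma adjusted p = 8.0e-07) and 3.62 times HD-Control in HD-WNT5B (log2 1.85, SE 0.04, adjusted p = 7.1e-10). Its transcript of 2105 bases is the shortest of the 9 and ends the shortest quintile, whose median change in HD-WNT5B against HD-Control was 1.24. With the length and GC trend removed the change was 1.41 (95% interval 1.32 to 1.51), and with all libraries brought to an equal total it was 1.30. The gene lies on the minus strand at chr14:57123303-57133611. The ratio of Gjb6 to Gja1 was 2.14, 2.93 and 2.43 in HD-WNT5B, 0.631, 0.633 and 0.636 in HD-Control, and 0.165, 0.172 and 0.169 in WT-Control. Gjb6 thus stood below Gja1 in all 6 control libraries and above it in all 3 HD-WNT5B libraries, counts not being divided by length. The log2 change of this ratio in HD-WNT5B against HD-Control was 1.97 as deposited and 0.88 with the length and GC trend removed. In HD-Control against WT-Control it was 1.91 and 1.88.

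**Figure D3:**
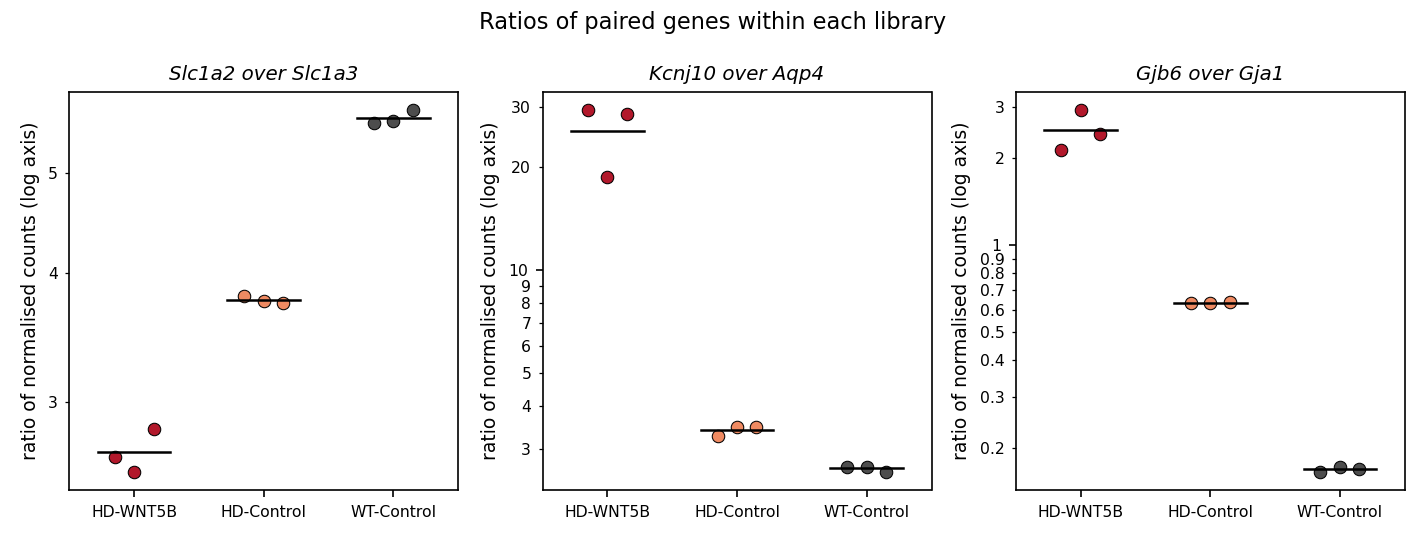
Ratios of normalised counts within each library on a log axis for 3 gene pairs; points are libraries and lines the group means, with HD-WNT5B, HD-Control and WT-Control from left to right. Slc1a2 over Slc1a3 averaged 2.68 in HD-WNT5B, 3.77 in HD-Control and 5.66 in WT-Control, while Kcnj10 over Aqp4 was 25.6, 3.41 and 2.63 in the same order of groups. The length trend was not removed from these ratios.

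The promoters of the connexin pair, which moved apart, and of Mlc1 are shown because the study title names NFATc2, a factor whose family recognises the core GGAAA. Aqp4 was left out of the promoter search. Promoter windows of 300 bases, 250 before to 50 after the RefSeq start in GRCm38.p6, were taken by symbol for the other 8 genes. They are written in the direction of transcription, and capitals mark GGAAA or its reverse complement TTTCC. The Gjb6 window is chr14:57133562-57133861 on the minus strand, the Gja1 window chr10:56377050-56377349 on the plus strand and the Mlc1 window chr15:88978504-88978803 on the minus strand.
Gjb6: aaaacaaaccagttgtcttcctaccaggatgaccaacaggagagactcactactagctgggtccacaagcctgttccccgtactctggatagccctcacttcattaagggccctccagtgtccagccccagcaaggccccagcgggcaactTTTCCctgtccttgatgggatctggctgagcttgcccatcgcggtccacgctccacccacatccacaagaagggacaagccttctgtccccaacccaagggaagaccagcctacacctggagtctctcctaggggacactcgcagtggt
Gja1: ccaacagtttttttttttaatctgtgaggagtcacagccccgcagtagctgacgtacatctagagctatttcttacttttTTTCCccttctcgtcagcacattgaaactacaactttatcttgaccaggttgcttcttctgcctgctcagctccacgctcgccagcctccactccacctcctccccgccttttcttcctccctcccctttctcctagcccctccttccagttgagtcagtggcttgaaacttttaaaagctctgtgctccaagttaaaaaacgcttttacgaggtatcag
Mlc1: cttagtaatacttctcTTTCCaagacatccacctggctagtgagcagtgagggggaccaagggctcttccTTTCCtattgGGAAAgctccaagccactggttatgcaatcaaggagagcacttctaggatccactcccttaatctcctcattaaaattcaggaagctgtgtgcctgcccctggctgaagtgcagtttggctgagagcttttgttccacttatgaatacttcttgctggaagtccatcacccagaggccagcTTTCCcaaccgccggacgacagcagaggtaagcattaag
Gjb6 held 1 match, whose first base lies at -99 from the start site, Gja1 held 1 match at -170, and Mlc1 held 4. Glul held 1 match, and the windows of Slc1a2, Slc1a3, Slc6a11 and Kcnj10 held none. The Slc1a2 window, chr2:102706188-102706487, belongs to a RefSeq start inside the gene, whose annotated start at 102658659 was not searched. The Mlc1 window likewise lies inside its gene, whose annotated start at 88979007 on the minus strand was not searched. Of 32851 windows of this length, 61.3% held at least 1 match, beside 4 of these 8. The STAT motif TTCNNNGAA was found in the Slc1a3 window and in 8.3% of all windows. Both strands were searched, neither motif contains the other, and a match here is a description of letters, not a binding site.

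Read per kilobase of longest transcript, which allows levels of different genes to be set side by side, Glul led in all 3 groups. In HD-WNT5B Gjb6 was second with 5588 ± 127 normalised counts per kb, above Slc1a2 with 2917 ± 98.9 and Slc1a3 with 2850 ± 214 per kb, which did not differ beyond their SD (n = 3). Gja1, Mlc1 and Kcnj10 came next and were also close to each other, at 1229 ± 171, 1226 ± 54.1 and 1158 ± 24.4 per kb, before Slc6a11 with 378 ± 67.9 and Aqp4 with 50.6 ± 13.5 per kb. In HD-Control the order was Glul, Slc1a2, Slc1a3, Mlc1, Kcnj10, Gjb6, Gja1, Slc6a11 and Aqp4. Gjb6 stood there at 1544 ± 8.67 per kb, above Gja1 at 1320 ± 12.1 and Slc6a11 at 1284 ± 7.88 per kb, and Aqp4 was last with 538 ± 11.9 per kb. In WT-Control Gja1, Slc6a11 and Aqp4 all stood above Gjb6, which was last with 799.8 ± 19.6 per kb, and Glul was first with 33949 ± 109 per kb. Levels per kb in HD-WNT5B carry the length trend of those libraries.

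**Figure D4:**
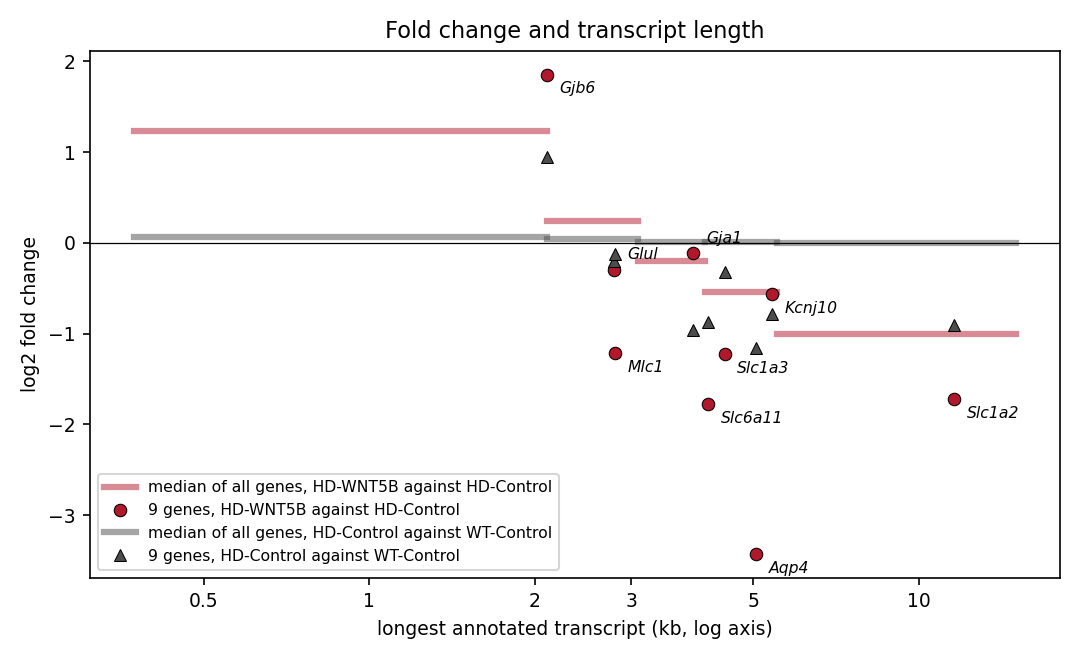
Log2 fold change against the length of the longest annotated transcript (kb, log axis); points are the 9 genes (circles, HD-WNT5B against HD-Control; triangles, HD-Control against WT-Control) and horizontal lines the medians of the 13081 genes averaging 100 or more in each length quintile. The medians ran from 1.24 to -1.0 in HD-WNT5B against HD-Control and from 0.07 to -0.01 in HD-Control against WT-Control, and Aqp4, Slc6a11 and Mlc1 lay furthest below the line of their quintile in HD-WNT5B against HD-Control.

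The wider pathways of these genes were read from lists that share no gene with the 9. The counts of each list stand beside 45.1% of all genes called in HD-Control against WT-Control. In HD-WNT5B against HD-Control 77.5% of all genes were called, and 11382 of 15411 with the trend removed. Among 21 genes of transmitter uptake and the glutamine cycle, 11 were lower, 5 higher and 5 not called in HD-Control against WT-Control (median log2 -0.18). Slc7a10, an astrocytic exchanger of D-serine and small neutral amino acids, fell to 442 ± 34.3 in HD-Control, against 1563 ± 44.1 in WT-Control. Slc6a9, the glycine transporter GlyT1, fell to 1218 ± 40.4 in HD-Control, against 3507 ± 75.5 in WT-Control. Slc1a5, a neutral amino acid exchanger, rose to 832 ± 44.9 in HD-Control, against 246 ± 12.2 in WT-Control (log2 1.74, limma adjusted p = 1.1e-05). The system N transporter Slc38a3, which exports glutamine from astrocytes, fell by 1.18 on the log2 scale. Of the same 21 genes, HD-WNT5B against HD-Control had 11 lower, 6 higher and 4 not called (median -0.28). Aldh5a1 and Abat of GABA breakdown had log2 changes of -1.61 and -1.28. Slc7a10 rose to 3757 ± 578 in HD-WNT5B, against 442 ± 34.3 in HD-Control (log2 3.07, SE 0.12, limma adjusted p = 3.0e-08). Other annotated genes share 17.86% of the exon bases of Slc7a10 (Lrp3) and 30.25% of those of Slc6a9 (B4galt2, Ccdc24 and Gm17114). For Aldh5a1 the shared part is 17.69%, and the library kit does not keep the strand. This list had 11 lower and 7 higher once the length and GC trend was removed (median -0.26), with Aldh5a1 at -0.94 and Slc7a10 at 2.15.

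Of 17 genes of potassium, chloride, sodium and pH transport in glia, 8 were lower, 3 higher and 6 not called in HD-Control against WT-Control (median -0.27). Car2, a carbonic anhydrase of glia, fell by 1.67 on the log2 scale (limma adjusted p = 8.5e-07). In HD-WNT5B against HD-Control 7 were lower, 5 higher and 5 not called (median -0.06). Atp1b2, a beta subunit of the sodium pump, had a log2 change of -2.09 in HD-WNT5B against HD-Control (SE 0.05, adjusted p = 1.5e-09). With the trend removed 7 were lower and 7 higher (median 0.00), and Atp1b2 was at -2.03. Kcnk2, the leak potassium channel TREK-1, rose by 2.06 in HD-WNT5B, while Kcnj10 fell on the deposited scale. Hepacam, the adhesion protein that brings Mlc1 to astrocyte contacts and was named after its values were seen, was not called in HD-WNT5B against HD-Control (log2 0.11, adjusted p = 0.179). Within libraries Mlc1 stood at 0.413 ± 0.027 of Hepacam in HD-WNT5B, 1.03 ± 0.019 in HD-Control and 1.34 ± 0.016 in WT-Control (SD, n = 3 each).

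Endfoot anchoring genes hold Aqp4 in place through the dystrophin complex. Of 12 aquaporin and endfoot genes other than Aqp4, 4 were lower, 1 higher and 7 not called in HD-Control against WT-Control (median 0.00). Against HD-Control, HD-WNT5B had 7 lower, 2 higher and 3 not called (median -0.98). Dag1, dystroglycan, averaged 1909 ± 463 in HD-WNT5B, 9035 ± 95.8 in HD-Control and 8717 ± 98.9 in WT-Control. Dmd, dystrophin, averaged 710 ± 49.4 in HD-WNT5B, 2414 ± 17.8 in HD-Control and 3564 ± 117 in WT-Control. Dtna, the glial partner dystrobrevin alpha, had a log2 change of -1.61 in HD-WNT5B against HD-Control (limma adjusted p = 2.4e-07). Trpv4, a cation channel that opens on cell swelling, rose to 452 ± 46.3 in HD-WNT5B, against 134 ± 19 in HD-Control. After removal of the trend this list had 6 lower and 2 higher (median -0.28). Dmd, with a transcript of 14.9 kb, was then at -0.60 in place of -1.76, Dtna at -0.75 and Dag1 at -1.85.

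Among 11 other connexin, pannexin and junction genes, 4 were lower, 1 higher and 6 not called in HD-Control against WT-Control (median -0.47). Gjb1, a connexin of oligodendrocytes, averaged 1154 ± 273 in HD-WNT5B, 309 ± 37.6 in HD-Control and 1251 ± 21.6 in WT-Control. Of these 11, 5 were higher, 3 lower and 3 not called in HD-WNT5B against HD-Control (median 0.60). Panx1, a large-pore channel for ATP release, rose by 2.13 on the log2 scale, and Tjp1, the scaffold that binds connexin 43, had a log2 change of -2.23 (adjusted p = 2.9e-05). With the trend removed again 5 were higher and 3 lower, but the median was -0.07, and Gjb1 was at 0.68 in place of 1.87 and Tjp1 at -1.36.

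**Figure D5:**
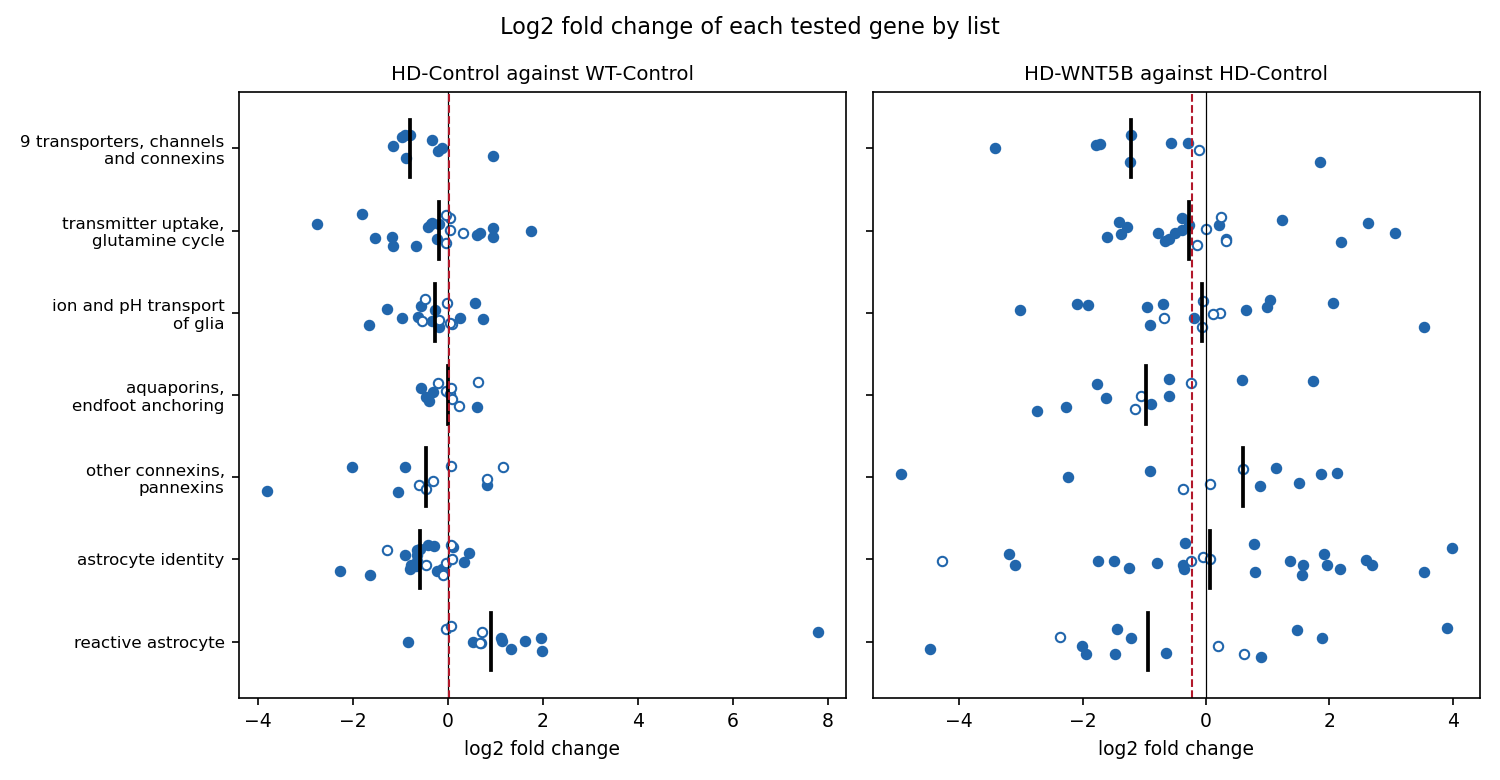
Log2 fold change of each tested gene in the 9 and in 6 gene lists, for HD-Control against WT-Control and HD-WNT5B against HD-Control; filled points were called, open points were not, black bars are list medians and the dashed line is the median of all genes. The 9 genes had medians of -0.79 and -1.21, and the reactive astrocyte list had 0.91 and -0.93.

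General astrocyte genes were set beside the 9 to show how far they moved together. Of 25 astrocyte identity genes, 16 were lower, 3 higher and 6 not called in HD-Control against WT-Control (median -0.59), and none was at 0 in any group. Sums of deposited counts keep the length trend and weigh abundant genes most. Summed in this way, the 25 genes gave 688637 to 721997 in HD-WNT5B, 334579 to 337927 in HD-Control and 369639 to 375270 in WT-Control libraries. In HD-WNT5B against HD-Control 12 were higher, 9 lower and 4 not called (median 0.07), with log2 changes of 3.99 for S100b, 2.18 for Aldh1l1 and 1.96 for Clu, which encode a calcium-binding protein, a folate enzyme and the chaperone clusterin. Among the 9 lower genes, named after their values were seen, were F3 (tissue factor) at -3.10, and Acsbg1 and Acsl6, acyl-CoA synthetases, at -1.75 and -1.50. After the correction 13 were higher and 9 lower (median 0.27), with S100b at 3.14, Clu at 1.01 and F3 at -3.50. Set against the median change of this list in HD-Control against WT-Control, Slc1a2, Slc6a11, Kcnj10, Aqp4 and Gja1 lay lower, with log2 differences of -0.32, -0.28, -0.20, -0.57 and -0.37. On the same measure Slc1a3, Glul, Mlc1 and Gjb6 lay higher, by 0.27, 0.39, 0.47 and 1.54. In HD-WNT5B against HD-Control all of the 9 but Gjb6 lay below the list's median change on the deposited scale, from -0.18 for Gja1 to -3.49 for Aqp4, and Gjb6 lay above it by 1.79. With the trend removed Gja1 lay above it by 0.27, Kcnj10 was at -0.28 and Aqp4 at -2.76. These differences are descriptions without a test.

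Reactive astrocyte genes went the other way from 8 of the 9 in HD-Control against WT-Control: 9 of 14 were higher, 1 lower and 4 not called (median 0.91). Gfap averaged 5176 ± 418 in HD-WNT5B, 8075 ± 79.6 in HD-Control and 5584 ± 37.3 in WT-Control. Stat3, a transcription factor of reactive gliosis, averaged 1840 ± 124 in HD-WNT5B, 7118 ± 145 in HD-Control and 3293 ± 25 in WT-Control. Of the 14, 7 were lower, 4 higher and 3 not called in HD-WNT5B against HD-Control (median -0.93). The higher ones included Timp1, an inhibitor of matrix proteases, at 3.92, the tetraspanin Tspan4 at 1.89 and S1pr3, a receptor for sphingosine 1-phosphate, at 1.47. After the correction 6 were lower and 5 higher (median -0.66), with Stat3 at -1.48, Timp1 at 1.94 and Tspan4 at 0.51.

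Markers of other cells moved in the same comparisons, and their part in the changes of the 9 genes was not tested. Of all genes tested, 24.5% were called higher and 20.7% lower in HD-Control against WT-Control. In HD-WNT5B against HD-Control these shares were 35.8% and 41.7%, and 11382 of 15411 genes were called there with the trend removed. In HD-Control against WT-Control, 9 of 9 microglia genes, 8 of 9 oligodendrocyte genes, 6 of 8 neuron genes and 6 of 7 cortical excitatory neuron genes were lower. Their summed counts were 13146 to 13218 in HD-Control, against 30109 to 30411 in WT-Control, for microglia, and 340686 to 343130 in HD-Control, against 471172 to 476350 in WT-Control, for oligodendrocytes. For neurons the sums were 200702 to 201534 in HD-Control and 234546 to 237481 in WT-Control, and for striatal projection neurons 453023 to 457621 in HD-Control and 515202 to 516034 in WT-Control. Against HD-Control, HD-WNT5B had 6 of 9 oligodendrocyte genes higher and 3 lower, 6 of 9 microglia genes higher and 0 lower, and 5 of 8 neuron genes higher and 3 lower. With the trend removed 7 oligodendrocyte genes were higher and 2 lower, 4 microglia genes higher and 1 lower, and 5 neuron genes higher and 3 lower. Oligodendrocyte genes summed to 762785 to 809544 in HD-WNT5B, against 340686 to 343130 in HD-Control, and microglia genes to 44734 to 49839 in HD-WNT5B, against 13146 to 13218 in HD-Control. Neuron genes summed to 114993 to 125186 in HD-WNT5B, against 200702 to 201534 in HD-Control. Lists of region were also uneven: cortical excitatory genes summed to 346016 to 373788 in HD-WNT5B, against 41185 to 42626 in HD-Control, most of it Nrgn. Genes of ependyma and choroid plexus summed to 14037 to 16894 in HD-WNT5B, against 1862 to 1902 in HD-Control. Of these 7 genes, 5 were higher and 1 lower as deposited (median 1.365). With the trend removed 2 were higher, 2 lower and 3 not called (median 0.303). All sums given here are on the deposited scale and keep the length trend. The only markers at 0 throughout a group were 1 of 14 reactive, 1 of 7 non-telencephalic astrocyte and 2 of 8 thalamic, midbrain and cerebellar genes in HD-WNT5B.

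Genes whose 9 values followed each of the 9 most closely were found among the 13081 genes averaging 100 or more, by the root mean square (RMS) difference of log2 values centred per gene, on the deposited scale and so with the length trend in it. Slc1a2 was nearest to Jph4, a junctophilin of neurons (RMS 0.088), and Pcdh15 (0.098), and the nearest of the 9 to it was Slc6a11 (0.147). Slc1a3 was nearest to Dlg4, the postsynaptic scaffold PSD-95 (0.023), and Nrip3 (0.038), and Mlc1 to Gsk3b, a serine-threonine kinase (0.031), and Praf2 (0.040). Kcnj10 was nearest to Unc13c (0.060) and Cntnap1 (0.066), Glul to Snx25 (0.025) and Fez1 (0.041), and Gja1 to Decr2 (0.073) and Lrrc8c (0.078). Gjb6 was nearest to Zranb1 (0.064) and Mrnip (0.088), and Slc6a11 to Pgr (0.091) and Olfm2 (0.105). Aqp4 had the least close neighbours, Krcc1 (0.207) and Hhip (0.269). With 3 groups, such a likeness rests on 2 differences between group means and on the scatter of 9 libraries.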

How the data were processed

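The authors deposited, for each protein-coding gene of each library, 1 decimal value, treated here as a signal. These behave as estimated reads that were scaled by a single factor per library and jointly over the 9 libraries, and gene length was left in. Between 97.4 and 98.8% of low values (under 500 reads) were whole multiples of the library's step within 0.01, and dividing by that step gave the depths in reads. Per the submitters' processing notes, STAR was run against mm10. The program that counted reads, its annotation and the versions were not given in the sources used here. Per the labels' protocols, the library kit does not keep the strand. All 21853 identifiers matched GENCODE M21, which supplied symbols, positions and lengths.

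Values were tested with limma 3.58.1 in R 4.3.3 on log2 of the value plus 3, for genes at 10 or more in at least 3 libraries. A mean per group was fitted over all 9 libraries (6 residual degrees of freedom), with the variance moderated along the mean and Benjamini-Hochberg adjusted p below 0.05 over all genes as the call. The added 3 shrinks changes of low genes. The shared spread includes the scatter of the HD-WNT5B libraries. With a weight per group, SEs in HD-WNT5B against HD-Control were 0.060 for Slc1a2 in place of 0.030 and 0.104 for Gjb6 in place of 0.038. For Slc6a11 the SE was 0.114 in both fits, and 8 of the 9 genes were called in each. In HD-Control against WT-Control the SE of Aqp4 was 0.034 in place of 0.153. The length and GC trend was removed with a spline per library. The fit was tested on simulated data.

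The 9 genes and all lists were chosen with earlier results of these data known. Of each list, up to 6 genes with the smallest p per comparison are named, and of genes like a member the 2 nearest. Alternatives covered scaling, the added constant, the filter, the spread, the samples fitted, a replicate block and single libraries left out. The list counts and ratios with the trend removed, and the differences from the median change of the astrocyte list, were added after seeing the data.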

Additional observations from a re-analysis of the deposited data

How the results depend on the processing

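The changes of the 9 genes were refitted under 22 other settings per comparison: 581 of the 594 values kept their direction and their side of the threshold. In HD-Control against WT-Control, 6957 genes were called, 12779 with a weight per group and 12908 with only the 2 groups compared in the fit. In that comparison 54.2% of calls were higher, 47.2% with upper-quartile factors. With all libraries brought to an equal total, the median of all genes in HD-WNT5B against HD-Control was -0.77 in place of -0.23, and the share of calls that were higher was 32.0% in place of 46.2% (31.7% in place of 46.0% in HD-WNT5B against WT-Control). Relative to that median the changes of the 9 genes moved by at most a few hundredths, with Gja1 at 0.10 in place of 0.12. A single factor per library shifts all its genes nearly alike, so this closeness was fixed in advance and is no check of the changes. Gja1 in HD-WNT5B against HD-Control changed sign to 0.536 with the length and GC trend removed, and ranged from -0.201 to 0.00025 with single libraries left out; the cause was not tested. Leaving out single libraries gave 5421 to 8949 genes called in HD-Control against WT-Control, 11063 to 12532 in HD-WNT5B against HD-Control and 11210 to 12621 in HD-WNT5B against WT-Control, with 8 or 9 of the 9 genes called. Without the second HD-WNT5B library, in which Wnt5b was low, Slc1a2 was at -1.72, Aqp4 at -3.63 and Gjb6 at 1.85 against HD-Control. Same-numbered libraries did not deviate together (r from -0.078 to 0.021), and with the replicate number as a block 6402, 11782 and 11891 genes and 8, 8 and 9 of the 9 were called, the lost call being Mlc1 in HD-Control against WT-Control (adjusted p = 0.0799). The voom method on recovered reads, added after seeing the data, called 9303, 12401 and 12507 genes and 9, 8 and 9 of the 9. The planned edgeR and DESeq2 fits on recovered reads were not run, because the deposited values hold fractions of reads. All 9 genes were above 200 in every library, and an effect of depth was not tested.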
